A study of Mus musculus with 8 samples.

Results

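The MiT/TFE family is made up of 4 genes, Mitf, Tfeb, Tfec and Tfe3. Its members were taken here as every listed region whose nearest gene is one of these 4. The rule found 97 of 129304 regions, of which 30 belonged to Mitf, 28 to Tfeb, 31 to Tfec and 8 to Tfe3. The measurement was H3K27ac, acetylation of lysine 27 on histone H3, a mark of active promoters and enhancers, by chromatin immunoprecipitation and sequencing (ChIP-seq). Nuclei of microglia, sorted from the brain, came from either wild-type (WT) animals or animals lacking Grn (GrnKO), the gene of progranulin. Progranulin is secreted, taken up and delivered to lysosomes.

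Both genotypes were C57BL/6 mice, 2 years old and perfused with saline, with no treatment given in the labels. Fixed nuclei from frozen hemibrains were sorted as positive for PU.1, a transcription factor of myeloid cells, and negative for the neuronal marker NEUN and the oligodendrocyte-lineage marker OLIG2. Each genotype had 2 H3K27ac libraries and 2 input libraries, which are sheared chromatin without immunoprecipitation, and each replicate pooled nuclei from 2 mice. The labels do not say how the Grn allele was made, and they name no cell type in which the loss was restricted. The replicates were different pools, so p-values measure the spread between pools, not between single mice. In both genotypes the pools of replicate 1 and replicate 2 also differed in sex-linked signal, so that spread holds this difference.

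The MiT/TFE proteins are basic helix-loop-helix leucine zipper factors that bind DNA as homodimers or as heterodimers with each other. TFEB, TFE3 and MITF are held in the cytoplasm when the kinase complex mTORC1 phosphorylates them at the lysosome, and they enter the nucleus when lysosomes are stressed or nutrients run short, where they switch on genes of lysosome biogenesis and autophagy. TFEC is the member with the most restricted expression and is best known from macrophages, and MITF is best known as the regulator of pigment cells and of osteoclasts. H3K27ac at these loci reports on the regulatory DNA of the genes that encode the factors, not on the amount of protein or on where in the cell it lies.

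Promoters that drive the genes differ in sequence within the family, and 5 of them are shown because the acetylation of the regions over them is described below. Each run is the 250 bases before an annotated start site, from RefSeq on GRCm38.p6, 5′ to 3′ on the strand of the gene, with every CG dinucleotide in capitals. The Tfec promoter lies at chr6:16898442-16898691 on the minus strand. The first and second Tfeb promoters lie at chr17:47736787-47737036 and chr17:47737681-47737930, the first Mitf promoter at chr6:97806808-97807057 and the second Tfe3 promoter at chrX:7763693-7763942, all on the plus strand.
Tfec promoter: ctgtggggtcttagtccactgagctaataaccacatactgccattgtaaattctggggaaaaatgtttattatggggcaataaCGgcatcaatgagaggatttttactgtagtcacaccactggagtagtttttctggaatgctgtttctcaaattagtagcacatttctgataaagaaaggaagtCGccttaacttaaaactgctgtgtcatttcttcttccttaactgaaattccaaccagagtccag
Tfeb first promoter: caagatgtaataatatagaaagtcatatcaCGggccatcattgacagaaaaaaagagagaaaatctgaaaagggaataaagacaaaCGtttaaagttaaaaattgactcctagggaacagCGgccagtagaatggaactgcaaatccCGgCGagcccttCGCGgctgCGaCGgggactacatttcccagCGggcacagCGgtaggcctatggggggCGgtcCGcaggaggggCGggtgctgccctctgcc
Tfeb second promoter: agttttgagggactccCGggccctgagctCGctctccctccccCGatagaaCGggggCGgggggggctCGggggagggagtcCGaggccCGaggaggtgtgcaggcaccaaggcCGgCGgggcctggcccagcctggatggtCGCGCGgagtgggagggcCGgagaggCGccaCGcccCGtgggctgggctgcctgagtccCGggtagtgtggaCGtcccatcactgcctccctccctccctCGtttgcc
Mitf first promoter: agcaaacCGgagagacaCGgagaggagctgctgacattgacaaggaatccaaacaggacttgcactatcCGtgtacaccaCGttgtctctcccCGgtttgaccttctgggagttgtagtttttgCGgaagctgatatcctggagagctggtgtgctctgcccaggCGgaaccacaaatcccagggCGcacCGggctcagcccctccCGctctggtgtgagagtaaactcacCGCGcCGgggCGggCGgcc
Tfe3 second promoter: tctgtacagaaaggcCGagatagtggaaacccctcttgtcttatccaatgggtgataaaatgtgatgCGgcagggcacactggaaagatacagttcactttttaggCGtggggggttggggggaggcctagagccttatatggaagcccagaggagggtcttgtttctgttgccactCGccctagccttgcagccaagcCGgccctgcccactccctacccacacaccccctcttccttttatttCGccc
The Tfec promoter held 2 CG dinucleotides and was 39.2% G or C. The first and second Tfeb promoters held 14 and 20 CG, the first Mitf promoter 15 and the second Tfe3 promoter 6. Of 32851 mouse promoters of this length, 29.0% held as few CG as Tfec or fewer, against 83.7% for the second Tfeb promoter. The regions over the Tfec promoter, the poorest in CG of the 5, and over the second Tfeb promoter, the richest, passed the test as higher in GrnKO nuclei, and those over the other 3 did not, with limits on both promoter calls given below.

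Windows of 300 bases around the 9 listed start sites of the family were searched on both strands for motifs. The E-box CACGTG, the related CATGTG, and the longer forms TCACGTGA and TCATGTG, which contain them and are the sites that MiT/TFE factors are known to bind, were in 0 of 9. They were in 7.15%, 14.2%, 0.974% and 3.77% of all promoter windows. The PU.1 motif GAGGAAGT was in 0 of 9, against 3.20% of all. The AP-1 motif TGANTCA was in 1 of 9, a Tfe3 promoter, against 7.81% of all.

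Values below are normalised tags, the tags in an 800 bp region at a library total of 10000000, divided by a TMM factor (trimmed mean of M-values) of the library. Of the 97 family regions, 70 held enough tags to be tested, and the highest value among the 27 left out was 10.5 scaled tags, before the TMM factor. The H3K27ac libraries held 15491642.5 to 20030832 tags and the inputs 4078179 to 14415969. WT replicate 1 had 49.4% of its tags in the listed regions and the other 3 libraries 63.3% to 65.7%. At the 10 regions of Grn itself the summed signal was 2291 and 1871 normalised tags in WT and 157 and 162 in GrnKO, which checks the labels.

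Summed over the regions of each gene, acetylation was higher in GrnKO nuclei at Tfec, Tfeb and Mitf and did not pass the test at Tfe3. The rise was largest at Tfec, by 1.26 on the log2 scale, and 0.34 at Tfeb and 0.35 at Mitf. By limma with Benjamini-Hochberg adjustment over 15380 genes, 3 of the 4 sums passed the adjusted threshold of 0.05 as higher, where 8.59% of all genes did. The median log2 change of all tested genes was -0.05, and 0.18 with the authors' scaling alone, under which the Tfec sum alone of the 4 passed. A bulk measurement cannot tell more acetylation per nucleus from more nuclei with an active region.

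**Figure D1:**
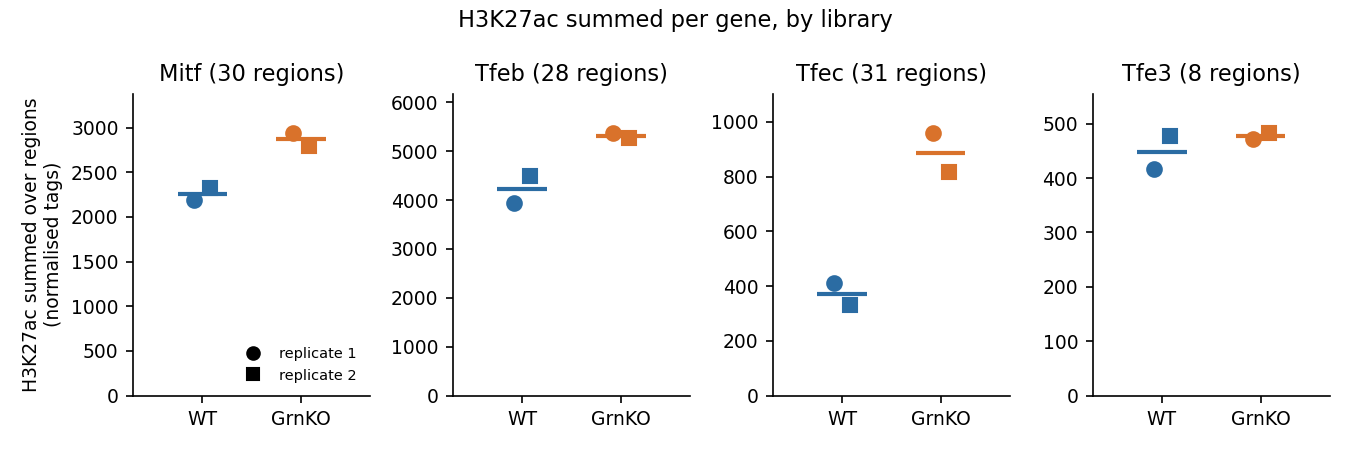
Summed H3K27ac of Mitf, Tfeb, Tfec and Tfe3 in each library, in normalised tags, with circles for replicate 1, squares for replicate 2 and lines at the means of 2 libraries. Both GrnKO libraries lie above both WT libraries at Mitf, Tfeb and Tfec, and at Tfe3 the genotypes overlap. Of all tested regions 27% show the same order, and its share over all gene sums was not counted.

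Tfec rose from 413 and 332 normalised tags in the WT replicates to 960.0 and 817 in the GrnKO replicates. The means were 372 ± 57.1 (SD, n = 2) and 888 ± 101 (SD, n = 2). Both GrnKO libraries stood far above both WT libraries, an order that 27% of all tested regions also showed. The log2 change was 1.26 (SE 0.15, 95% interval 0.94 to 1.57), a fold of 2.39, with a limma adjusted p of 9.1e-05. That change ranked 663 of 15380 genes from the highest. Per region, counting the 15 weak regions that were not tested, Tfec had the lowest mean of the family, 12.01 normalised tags in WT and 28.7 in GrnKO. Tfeb had 151 and 190 per region, Mitf 75.1 and 95.6, and Tfe3 55.9 and 59.7, and in WT neighbours in this order did not overlap between genes.

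Of the 31 Tfec regions 16 were tested and 11 were higher in GrnKO, and no Tfec region was lower. Across the family 24 of 70 tested regions, or 34.3%, were higher and 0 were lower, where 6.8% of all tested regions were higher and 2.92% lower. Of the 70, 60 reached the tag minimum in both genotypes, and 23 of these were higher. Another 2 reached it only in the GrnKO libraries, and 1 of these, at Tfec, was among those called higher. In 40 of the 70 both GrnKO values lay above both WT values, which holds for 27% of all tested regions, and in 4 both lay below, which holds for 25.6%. The median log2 change of tested regions was 1.29 at Tfec, 0.58 at Tfeb, 0.19 at Mitf and -0.07 at Tfe3, against -0.0020 for all tested regions. Many family regions overlap a neighbour and share tags with it: 44 of the 97 do, so counts of regions overstate the number of separate elements. Without GrnKO replicate 1 the count of 24 became 5, beside 1.41% of all regions higher, and without GrnKO replicate 2 it became 4, beside 1.8%. A single Tfec region passed in each case, and the Tfec sum kept its call without any 1 of the 4 libraries.

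**Figure D2:**
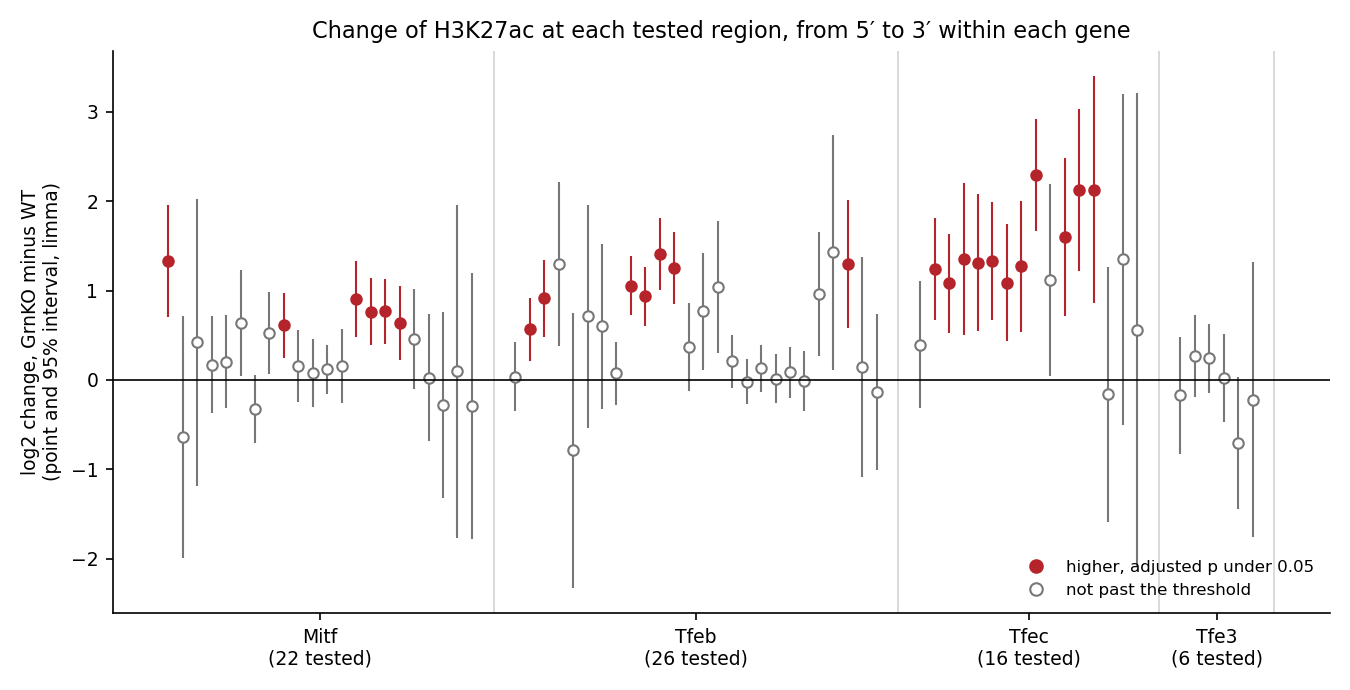
Log2 change (GrnKO minus WT) of each tested family region with its 95% interval, by gene, with filled points for regions past the adjusted threshold. The Tfec points lie highest, most Tfeb and Mitf points lie nearer 0, and no Tfe3 point is filled.

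The largest single change in Tfec was in intron 1, 6.34 kb downstream of the start site, at chr6:16891706-16892506. It had 21.1 and 22.5 normalised tags in WT and 129 and 94.4 in GrnKO. Both GrnKO values stood far above both WT values, and the log2 change was 2.29 (SE 0.30, limma adjusted p = 9.2e-05). Deeper in intron 1, 3 regions from 14.3 to 15.5 kb past the start rose by 1.60, 2.12 and 2.13. The most distal of these, at chr6:16882506-16883306, had 3.91 and 4.98 tags in WT and 19.2 and 26.8 in GrnKO, and it reached the tag minimum only in the GrnKO libraries, so that it entered the test through the genotype in which it was high.

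The Tfec region with the highest mean over the 4 libraries lay 1.36 kb past the start at chr6:16896681-16897481, with 63.7 and 32.0 normalised tags in WT and 115 and 82.4 in GrnKO. It rose by 1.09 (SE 0.31, limma adjusted p = 0.0334), and the regions that overlap it rose by 1.27 and 1.33. Without WT replicate 2 its change was 0.60 and that of the overlapping region at 16896256 was 0.83, neither passed (limma adjusted p = 0.0971 and 0.0504), and 9 Tfec regions passed in place of 11. The promoter region itself, chr6:16898041-16898841, which holds the whole printed sequence, had 30.1 and 16.2 in WT and 56.6 and 56.5 in GrnKO. It rose by 1.31 (SE 0.36, limma adjusted p = 0.0276), and the other promoter region, which overlaps it, by 1.35. Outside the gene, 2 overlapping intergenic regions 65.7 and 66.1 kb upstream rose by 1.08 and 1.24. The regions that rose held 77.3% of the WT signal of the gene. Both promoter calls were lost with DESeq2 (adjusted p = 0.0594 and 0.0938) and with no filter (limma adjusted p = 0.0523 and 0.0784), and the promoter and upstream calls were lost without either GrnKO library. The calls at 16896681 and 16896256 were likewise lost with DESeq2 (adjusted p = 0.0727 and 0.0518) and with no filter (limma adjusted p = 0.0673 and 0.0506), and that at 16882506 with no filter (limma adjusted p = 0.0853), which left 7 Tfec calls with DESeq2 and 6 with no filter. Subtracting the input turned the promoter regions to -1.51 and -0.64, the intron region at 6.34 kb to -0.44 and the farther upstream region to -0.72, none past the threshold. The 5 tested Tfec regions that did not pass had log2 changes from -0.16 to 1.35.

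**Figure D3:**
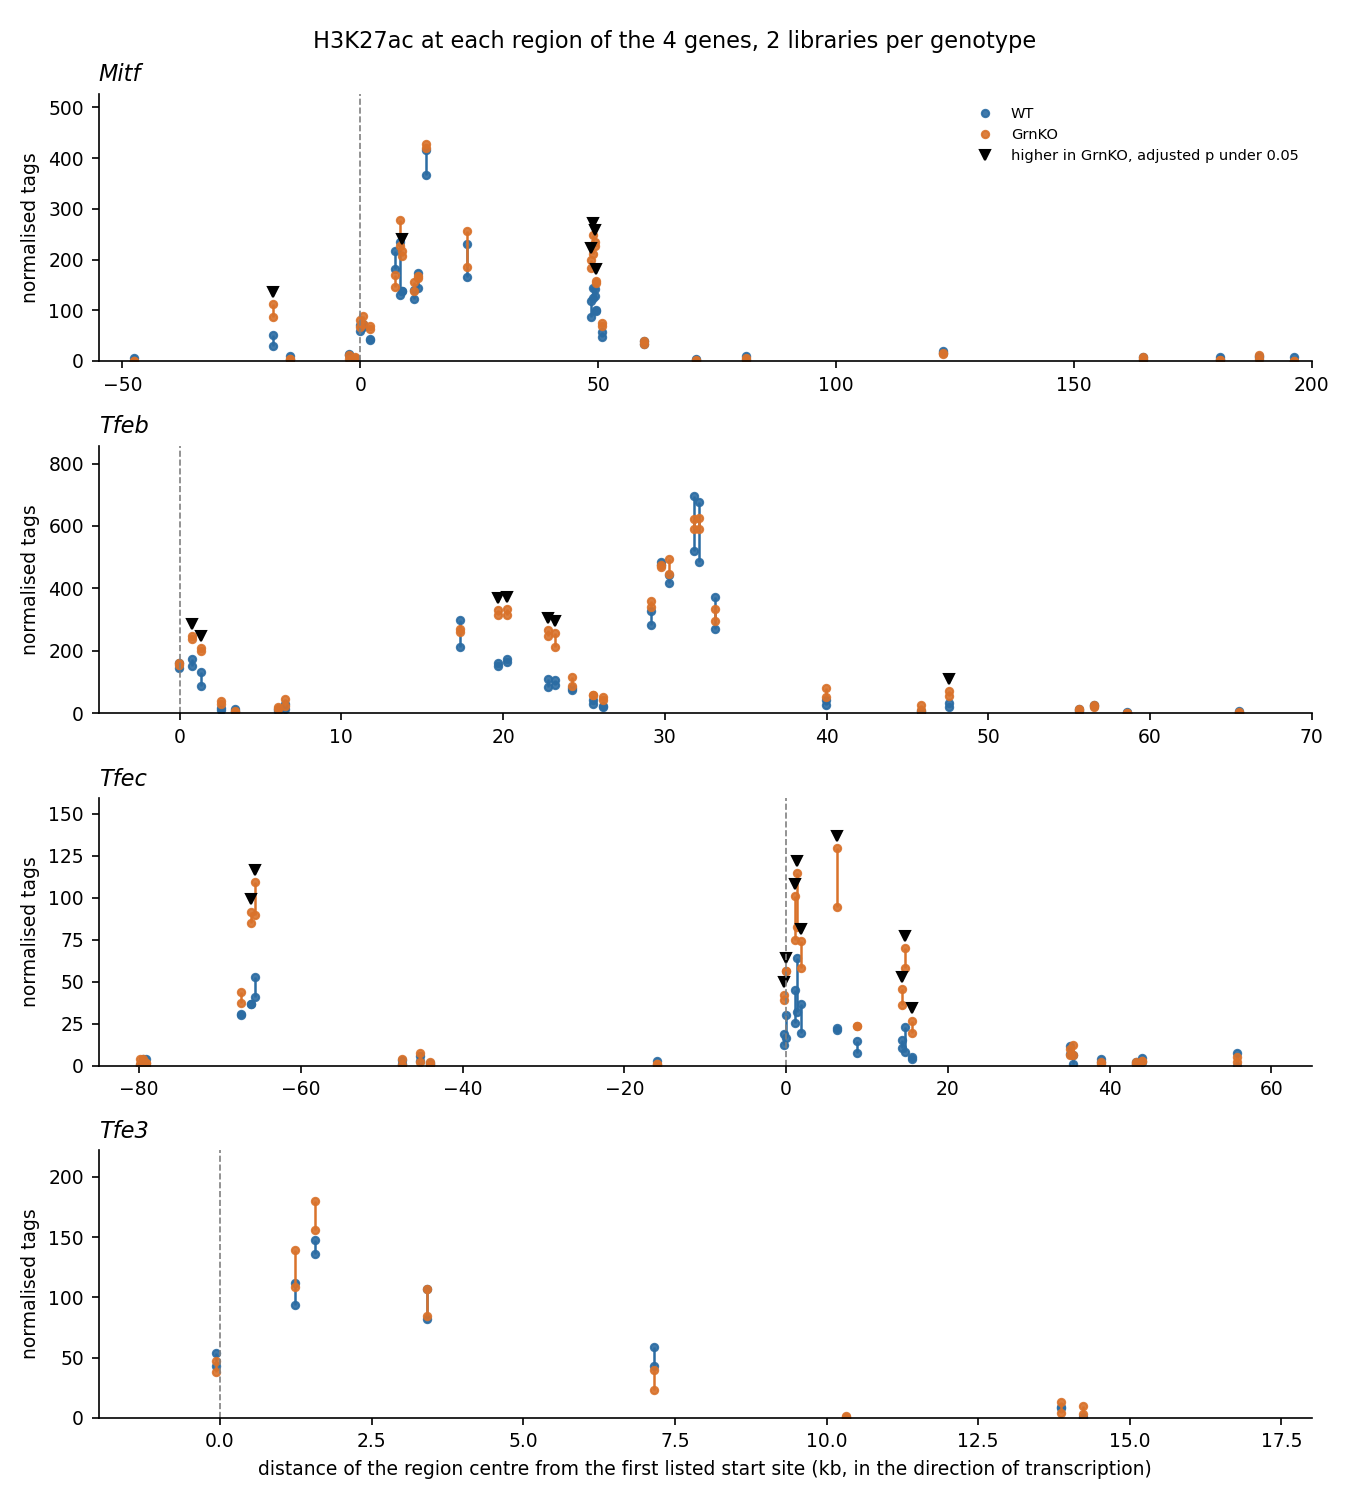
Normalised tags of the family regions against distance from the first start site of each gene in kb, with WT and GrnKO libraries as points joined by genotype and triangles over regions past the threshold; 2 Mitf and 5 Tfec regions that were not tested lie outside the axes. At Tfec the GrnKO points lie above the WT points at every marked region, and at Tfeb and Mitf they separate at some regions and coincide at others.

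Tfeb is the best-studied activator of lysosomal genes in this family. Its sum was 3949 and 4498 normalised tags in WT and 5372 and 5265 in GrnKO, with means of 4224 ± 388 (SD, n = 2) and 5318 ± 75.9 (SD, n = 2). Both GrnKO libraries were above both WT libraries, as in 27% of all tested regions, and by less in proportion than at Tfec. The log2 change was 0.34 (SE 0.08, 95% interval 0.17 to 0.50, limma adjusted p = 0.0113). With the authors' scaling alone, without TMM factors, the sum changed by 0.56 and did not pass (limma adjusted p = 0.205). Without GrnKO replicate 1 or 2 the adjusted p was 0.139 or 0.0817.

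The Tfeb rise was uneven along the gene, with 7 of 26 tested regions higher and 0 lower, beside 6.8% and 2.92% of all tested regions. The calls at the second promoter, at the region 47737985 next to it and at 47.6 kb did not hold when either GrnKO library was left out. Calls over all regions also fell in those fits. The regions that rose were in 4 stretches, from the second promoter to 47.6 kb into the first intron, and 16 intron regions did not pass. The first promoter region, chr17:47736622-47737422, had 146 and 161 normalised tags in WT and 153 and 161 in GrnKO, a log2 change of 0.04 (SE 0.18, limma adjusted p = 0.932). The second promoter region, chr17:47737431-47738231, had 174 and 153 in WT and 246 and 238 in GrnKO, a log2 change of 0.57 (SE 0.17, limma adjusted p = 0.0393). The region next to it, at chr17:47737985-47738785, rose by 0.92. The second promoter call was also lost with the authors' scaling (limma adjusted p = 0.0571), DESeq2 (adjusted p = 0.0591) and no filter (limma adjusted p = 0.0725), and subtracting the input turned it to -0.99. Whether the 2 promoters differ from each other in their change was not tested.

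Within Tfeb intron 1 the largest rise past the threshold was at chr17:47759446-47760246, 22.8 kb past the first start. It had 84.1 and 111 normalised tags in WT and 267 and 248 in GrnKO. Both GrnKO values stood far above both WT values, and the log2 change was 1.40 (SE 0.19, limma adjusted p = 0.000137). Its overlapping neighbour rose by 1.25, and a pair of regions 19.7 and 20.2 kb past the start rose by 1.05 and 0.93. A weaker region 47.6 kb past the start, at 19.6 and 31.7 in WT and 70.1 and 56.1 in GrnKO, rose by 1.30. Subtracting the input turned the overlapping neighbour to -0.021 and the region at 47.6 kb to -0.26. A still weaker one 45.8 kb past the start had a change of 1.43, numerically the largest at Tfeb, and did not pass (limma adjusted p = 0.17). That region reached the tag minimum only in the GrnKO libraries, so it too entered the test through the genotype in which it was high.

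The strongest Tfeb element of all did not move with these. At chr17:47768425-47769225, 31.8 kb past the start, the values were 519 and 696 normalised tags in WT and 623 and 589 in GrnKO, a log2 change of 0.01 (SE 0.13, 95% interval -0.26 to 0.29). The genotypes overlapped there. The element at 22.8 kb stood at 16.2% and 15.9% of this region in the WT libraries and at 42.8% and 42.1% in the GrnKO libraries, a ratio within each library that no scaling of libraries can change. The element at 22.8 kb was taken because it had the smallest p of the gene, so the separation of these ratios was fixed by that choice and is a description.

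Mitf, the pigment-cell and osteoclast member, had a sum of 2190.0 and 2319 normalised tags in WT and 2939.9 and 2799 in GrnKO. The means were 2254 ± 91.0 (SD, n = 2) and 2869 ± 99.9 (SD, n = 2). Here too both GrnKO libraries were above both WT libraries, as in 27% of all tested regions. The log2 change was 0.35 (SE 0.08, 95% interval 0.17 to 0.53, limma adjusted p = 0.0133). This call was lost with the authors' scaling alone (0.57, limma adjusted p = 0.142), over non-overlapping regions (0.23, limma adjusted p = 0.0918) and over regions within 1000 bp of a start (0.14, limma adjusted p = 0.786). It was also lost without GrnKO replicate 1 (limma adjusted p = 0.226) or GrnKO replicate 2 (limma adjusted p = 0.0893).

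Of 22 tested Mitf regions 6 were higher and 0 lower, beside 6.8% and 2.92% of all tested regions, and these 6 lay in 3 places. None of these calls held when either GrnKO library was left out, where calls over all regions also fell. An intergenic region 18.3 kb upstream of the first start, chr6:97788374-97789174, had 50.8 and 29.3 normalised tags in WT and 86.6 and 112.6 in GrnKO. It showed the largest Mitf change, 1.33 (SE 0.30, limma adjusted p = 0.00797). In intron 1, 4 overlapping regions 48.6 to 49.6 kb past the start rose by 0.91, 0.76, 0.77 and 0.64. The first of them, chr6:97855224-97856024, had 118 and 87.0 in WT against 199 and 183 in GrnKO. The remaining region, 8.86 kb past the start in intron 1, rose by 0.61 (limma adjusted p = 0.0328). That call and the one of 0.64 were lost with DESeq2 (adjusted p = 0.0522 and 0.0876) and with no filter (limma adjusted p = 0.057 and 0.0716), and the one of 0.64 also with a pseudocount of 0.5 (limma adjusted p = 0.0501).

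Mitf is known for several alternative promoters that are used in different cell types. The first promoter region, chr6:97806588-97807388, had 59.8 and 70.2 normalised tags in WT and 80.6 and 66.2 in GrnKO, and with overlapping genotypes its change of 0.17 did not pass (limma adjusted p = 0.75), nor did that of 0.20 in the region 0.561 kb past the start. A downstream promoter 122 kb past the first start held only 12.9 to 18.9 tags in the 4 libraries. The most 3′ start site in the promoter table, which precedes the short form of melanocytes, was overlapped by 0 of the listed regions, so no value can be given for it. The strongest Mitf region, chr6:97820425-97821225 in intron 1, had 366 and 415 in WT and 428 and 419 in GrnKO, a change of 0.12 (SE 0.13, limma adjusted p = 0.636). Against that region the intron element at 48.6 kb, taken for its p, the smallest of the gene, stood as a description at 32.3% and 20.9% in WT and at 46.5% and 43.6% in GrnKO.

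Tfe3, a broadly expressed partner of TFEB that also responds to mTORC1, had a sum of 416 and 478 normalised tags in WT and 472 and 483 in GrnKO. The genotypes overlapped, with WT at 447 ± 43.3 (SD, n = 2) and GrnKO at 478 ± 7.42 (SD, n = 2) on average. The log2 change was 0.10 (SE 0.14, 95% interval -0.20 to 0.40, limma adjusted p = 0.718), so the interval allows a rise as large as those of the Mitf and Tfeb sums. Of 6 tested Tfe3 regions 0 passed the threshold, where 6.8% of all tested regions passed as higher and 2.92% as lower. The strongest, chrX:7763835-7764635, which overlaps the second promoter printed above, had 136 and 147 in WT and 180.2 and 156 in GrnKO, a change of 0.24 (limma adjusted p = 0.467). The other 2 promoter regions, chrX:7762191-7762991 and chrX:7763491-7764291, had changes of -0.17 and 0.26 that did not pass. The largest change was a lower value, -0.70 (limma adjusted p = 0.232), in intron 6 of 9. Tfe3 is X-linked, and the pools differed in sex-linked signal: 8 Y-linked regions summed to 5.81 and 0 scaled tags in replicate 1 of WT and GrnKO and to 270 and 220 in replicate 2. What this contributes to the Tfe3 values was not tested.

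Relative to Tfe3 in the same library, the other 3 sums were all higher in GrnKO. The Tfec sum was 0.991 and 0.695 times the Tfe3 sum in WT and 2.03 and 1.69 times in GrnKO. The Tfeb ratio went from 9.48 and 9.42 to 11.4 and 10.9, and the Mitf ratio from 5.26 and 4.85 to 6.22 and 5.80. These ratios are free of library scaling. Tfe3 was chosen as the divisor after its values were seen, and no test was made.

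The genes whose summed acetylation followed each member most closely were found by the Euclidean distance of centred log2 values over the 4 libraries, among 15380 genes. Nearest to Tfec were Gng12, Smu1 and Cd5l, at 0.031, 0.054 and 0.078. Nearest to Tfeb were Dapl1, B330016D10Rik and Adcy9, and nearest to Mitf were Gm4285, Ctns and Lilrb4a. Nearest to Tfe3 were Dnm2, Arl6ip5 and Btbd19. These distances rest on 4 libraries and are a description only.

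Lists of genes around the family were drawn up with earlier results of these data known. No list was tested against another, so their counts are a description. Of 40 listed targets, lysosomal, autophagy and related genes that these factors are known to activate, 39 were tested. In GrnKO, 21 were higher and 1 was lower, against 8.59% and 5.88% of all genes, and the median log2 change was 0.59. Gpnmb, a transmembrane glycoprotein of phagocytes, had 17.6 and 15.2 normalised tags in WT and 440.1 and 389 in GrnKO, a log2 change of 4.58 (SE 0.25, limma adjusted p = 3.18e-07). Clcn7, a lysosomal chloride transporter, rose by 1.82 and Gla, the lysosomal alpha-galactosidase, by 2.35. Sqstm1, an autophagy receptor, rose by 1.28, Cd63, a membrane protein of late endosomes, by 1.13 and Atp6v1a, a subunit of the proton pump that acidifies lysosomes, by 1.17. Hif1a, a hypoxia-response factor, rose by 0.82 and Cd68, a lysosomal membrane protein of macrophages, by 0.79. Uvrag, which acts in autophagosome maturation, fell by 0.35. The 17 other tested targets did not pass, Map1lc3b, Hexa, Neu1 and Psap among them. With the authors' scaling alone 21 were higher and 0 lower, beside 10.6% and 1.08% of all genes. None was lower without GrnKO replicate 1 or 2, where 1.42% and 2.45% of all genes were.

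Upstream of the family stand the proteins that hold it at the lysosome or release it. Of 36 listed regulators 34 were tested, and their median log2 change was -0.00. Past the threshold, 6 were higher and 2 lower, beside 8.59% and 5.88% of all genes, so the share lower was near that of all genes. Rragd and Rragc, the GTPases that bring these factors to mTORC1, rose by 3.36 and 0.58. Rragd had 16.8 and 25.1 normalised tags in WT and 242 and 201 in GrnKO, in 3 regions. Fnip2 and Fnip1, partners of folliculin, which activates those GTPases, rose by 1.28 and 0.53, and folliculin itself, Flcn, changed by 0.19 without passing (limma adjusted p = 0.348). Mcoln1, the lysosomal calcium channel whose release of calcium leads to dephosphorylation of TFEB, rose by 1.07, and Tsc1, an inhibitor of mTORC1, by 0.69. Ywhah, a 14-3-3 protein of the family that binds phosphorylated TFEB, fell by 0.59 and Lamtor3, a scaffold subunit of mTORC1 recruitment, by 0.60. Rragc, Rragd, Fnip1, Fnip2, Flcn and Mcoln1 stand in both lists, because they are also known targets. Both falls were lost with the authors' scaling alone (limma adjusted p = 0.475 for Ywhah and 0.376 for Lamtor3). The count higher was 2 without GrnKO replicate 1 and 3 without GrnKO replicate 2, beside 3.62% and 4.33% of all genes. The count lower was 4 without WT replicate 2 and 1 without GrnKO replicate 1, beside 11.3% and 1.42%.

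Other helix-loop-helix factors that bind E-boxes were listed for comparison. Of 21, 19 were tested, 3 were higher and 2 lower, beside 8.59% and 5.88% of all genes, with a median of -0.01. Bhlhe40 rose by 0.97 and Bhlhe41 by 0.39, both repressors of transcription, and Max, the dimer partner of Myc, by 0.39. Mlxipl, a glucose-sensing activator, fell by 0.56 and Mxd4, a Max partner, by 0.48. With the authors' scaling alone 1 was higher, Bhlhe40, and 0 were lower, beside 10.6% and 1.08% of all genes. The counts were 1 higher and 0 lower without GrnKO replicate 1 (3.62% and 1.42% of all genes) and likewise without GrnKO replicate 2 (4.33% and 2.45%), and 6 were higher without WT replicate 2, beside 12.9% of all genes.

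**Figure D4:**
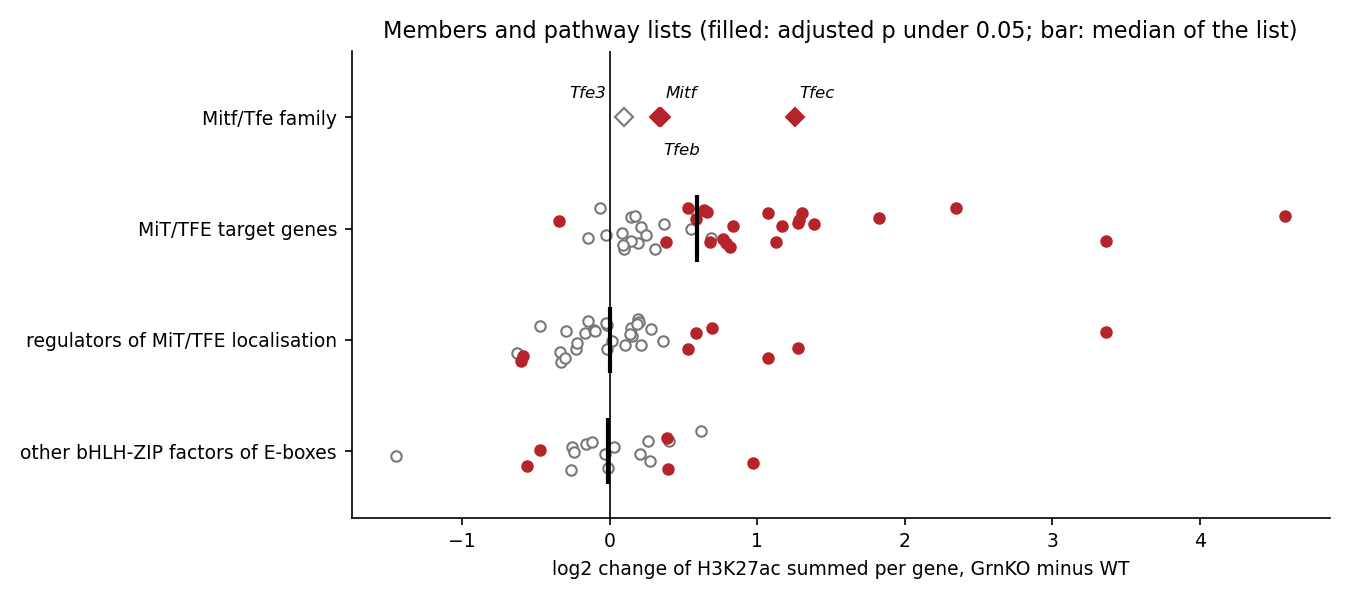
Log2 change of summed H3K27ac (GrnKO minus WT) for each tested gene of the 3 lists beside the 4 family members, with filled points past the adjusted threshold and bars at list medians. Target genes lie mostly above 0, and regulators and other E-box factors lie on both sides of 0.

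Signals of other cells and of the inputs were read beside these results. Microglial markers were strong, with a median of 145 to 183 scaled tags per region by library, and 6 of 14, among them Cx3cr1 and Sall1, were lower in GrnKO and 0 higher, beside 5.88% and 8.59% of all genes. With the authors' scaling alone 0 of these 6 passed, where 1.08% of all genes were lower. Of border macrophage and monocyte markers 1 of 9 was higher and 1 lower, at 12.6 to 19.9 per region. Melanocyte markers, relevant to Mitf, lay at 2.295 to 4.995 per region, 4 of 6 were in the table, and of 2 tested 0 passed. Medians of neutrophil and B cell, oligodendrocyte and neuron markers lay between 0.16 and 7.26, and of astrocyte markers between 14.1 and 22.7. Of 5 tested neutrophil and B cell markers Ms4a1 and S100a8 were higher, and of 5 oligodendrocyte markers Mbp was higher and Mog lower. Of 4 tested neuron markers Syt1 was lower, and of 4 astrocyte markers 0 passed. These counts stand beside 8.59% of all genes higher and 5.88% lower. S100a8 had 1 region, at 0 and 5.24 normalised tags in WT and 20.4 and 18.7 in GrnKO. The border macrophage and monocyte calls were Ms4a7, higher, and Ccr2, lower. Ccr2 and Syt1 did not pass with the authors' scaling alone (limma adjusted p = 0.523 and 0.105). The part of such cells in the family results was not tested.

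Inputs were uneven at these loci. Over the Mitf regions they summed to 677 and 85.5 scaled tags in WT and to 52.4 and 138 in GrnKO, with 38 tags of WT input 1 at each of 2 of the 4 overlapping Mitf regions that rose. At Tfec the WT inputs summed to 230.5 and 133 and the GrnKO inputs to 182 and 223, and GrnKO input 2 held 24 tags at both Tfec promoter regions where GrnKO input 1 held 0. The H3K27ac sum at Tfec was 1.48 and 2.58 times the input sum in WT and 5.70 and 3.95 times in GrnKO. With the input change subtracted in 1 fit, the sums changed by 1.05 at Tfec, 1.17 at Tfeb, 1.84 at Mitf and 3.28 at Tfe3, and none passed (limma adjusted p from 0.894 to 0.918), so that the order of the genes was not kept. In that fit, 0 of 70 family regions and 0 of all regions passed (limma), 6 and 6113 of them at an unadjusted p under 0.05. In 3 of the 4 inputs most family regions held no tag.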

How the data were processed

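The authors' deposited table gives, per the file headers, tags in 129304 regions of 800 bp as a signal scaled to 10000000 tags per library, with the nearest gene of each region. The submitters' processing notes name mm10, Bowtie2, HOMER and DESeq2 without a role or version, and the handling of duplicate reads is not given in the sources used here. Multiplying by the library totals returned whole read ends for 100% of values, at 2 ends per tag, within 0.00489 to 0.0240 of an end by library. The 4 H3K27ac libraries were compared by genotype with limma 3.58.1 (lmFit, eBayes with trend) in R 4.3.3 on log2(value + 1), which understates changes of low values, after TMM factors of 0.825 and 1.04 in WT and 1.08 and 1.08 in GrnKO (edgeR 4.0.16). Regions kept by filterByExpr with a minimum of 10 tags numbered 80728, and 15380 genes were tested as sums over their regions. P-values were adjusted by Benjamini-Hochberg at 0.05 over all regions or genes. The test was also run on simulated tags with known changes. Those held no sex-linked difference between pools, and their inputs were more even than the real ones. That run therefore cannot vouch for the p-values or for the subtraction of the input. Replicate numbers come from the titles.

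The text names every family region past the threshold or at an annotated start, the strongest and the most changed region of each gene, up to 10 genes per list and direction by smallest p, and the 3 genes most like each member. Members, lists and tests were chosen with earlier results of these data known. Alternatives were other scalings, pseudocounts and filters, edgeR, DESeq2 1.42.0, a replicate block, leaving out each library, other region sets and subtraction of the input. Promoter sequences are RefSeq's on GRCm38.p6, and the start site that the table implies lay within 1 bp of a listed start for 91 of 97 family regions. Motif windows hold 300 bases, and the reference genome was not used here.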

Additional observations from a re-analysis of the deposited data

How the results depend on the processing

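With 2 libraries per genotype, leaving out 1 assumes that the lone library varies like the other group, and shallow inputs limit the subtraction. With the authors' scaling alone the Mitf and Tfeb sums changed by 0.57 and 0.56 (limma adjusted p = 0.142 and 0.205). The lower counts became 0 in the target, regulator and E-box lists, beside 1.08% of all genes. In the E-box list 1 factor was higher, beside 10.6%. With the input change subtracted, the Mitf, Tfeb, Tfec and Tfe3 sums changed by 1.84, 1.17, 1.05 and 3.28 (limma adjusted p = 0.912, 0.918, 0.912 and 0.894), and counts of family regions, all regions, all genes and all list genes in either direction were 0. Under that subtraction 11 of 35 regions followed singly changed sign, 7 of them past the threshold before, to -0.99, -0.021 and -0.26 at Tfeb 47737431, 47759824 and 47784199 and to -0.44, -1.51, -0.64 and -0.72 at Tfec 16891706, 16898041, 16898298 and 16964180 (limma adjusted p from 0.837 to 0.997). The other 4 were Mitf 97820425 at -0.26, Tfeb 47736622 at -2.76 and 47768425 at -1.999, and Tfe3 7769423 at 0.66. Over regions within 1000 bp of a start the Mitf sum changed by 0.14 (limma adjusted p = 0.786). In that set 580 genes passed, with 3.57% of all genes higher and 1.66% lower. Beside these shares 1 regulator was lower, 0 targets were lower, and 1 E-box factor was higher and 0 lower. Non-overlapping regions gave 0.23 for Mitf (limma adjusted p = 0.0918). Without intergenic regions 2 targets were lower, where 4.87% of all genes were. The cause of these moves was not tested.

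Leaving out each library gave 4 to 28 family regions, log2 changes of 0.31 to 0.39 for the Mitf sum, 0.24 to 0.43 for Tfeb, 1.10 to 1.41 for Tfec and -0.00 to 0.20 for Tfe3. It gave 2 to 7 regulators higher and 1 to 4 lower, 15 to 24 targets higher and 0 to 1 lower, 1 to 6 E-box factors higher and 0 to 3 lower, 1334 to 14415 regions in all and 774 to 3716 genes. The shares of all regions and genes called in each direction, given with the family and list counts above, also moved widely between these fits. The ranges of counts therefore do not show a change particular to the family or to a list. The number of family regions higher was 26 with the authors' scaling (8.15% of all regions higher) and 23 and 24 with pseudocounts of 0.5 and 5 (6.52% and 7.48%). It was 24 with edgeR on the recovered tags (6.7%), 17 with DESeq2 (6.21%), and 16 without a filter (3.12%, regions at 0 in all libraries left out).

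With the replicate number as a block, 28 family regions passed, while 9.17% of all regions were higher in place of 6.8%, and the sums of Mitf, Tfeb and Tfec kept their calls (limma adjusted p = 0.00229, 0.000785 and 1.99e-07). Over all regions the deviations of same-numbered libraries had a correlation of 0.034, and the labels name no shared source for a number. The numbers do go with sex-linked signal in both genotypes: Xist regions summed to 81.7 and 128 scaled tags in replicate 1 of WT and GrnKO and to 0 and 5.49 in replicate 2.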
